A study of Rattus norvegicus with 320 samples.

Results

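The miR-17~92 and miR-106b~25 clusters were followed through 9 of the 616 miRNAs in the deposited count table, across 11 organs and 4 ages of the rat. The members were picked by name, as the main arm of each hairpin, by a rule that uses no measured value, although earlier results of these data were known. The miR-17~92 cluster contributed 6 members, rno-miR-17-5p, rno-miR-18a-5p, rno-miR-19a-3p, rno-miR-20a-5p, rno-miR-19b-3p and rno-miR-92a-3p. The miR-106b~25 cluster contributed 3 members, rno-miR-106b-5p, rno-miR-93-5p and rno-miR-25-3p. The organ with the highest mean level was thymus, spleen or, for 1 member at week 2, testis. Of the 99 organ and member pairs, 64 were lower at week 21 than at week 2, where 25.3% of all miRNA pairs were.

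The libraries came from Fischer 344 rats, an inbred laboratory strain, of both sexes at 2, 6, 21 and 104 weeks of age, and the labels name no allele or treatment in any group. Adrenal gland, brain, heart, kidney, liver, lung, skeletal muscle, spleen and thymus were taken from both sexes, testis from males and uterus from females, with 4 libraries for each organ, sex and age and 320 in all. Each rat gave 10 organs, so libraries of different organs share rats, whereas the ages come from different rats. Small RNA was sequenced from ground whole organs, so fewer cells of a type and less RNA per cell cannot be told apart in any value given here.

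Both clusters are polycistrons, meaning that a shared primary transcript is cut into several hairpins and then into mature miRNAs. They are best known from dividing cells: miR-17~92 is switched on by MYC and E2F factors and is needed for lymphocyte development, and miR-106b~25 lies in an intron of Mcm7, which encodes a subunit of the helicase that opens DNA for replication. Known targets include the cell cycle inhibitor Cdkn1a for the miR-17 seed family and the death-promoting protein Bcl2l11 for miR-92a and miR-25.

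The 9 mature sequences are shown because the members fall into 4 families by their seed, bases 2 to 8 from the 5′ end, which is printed in capitals and which pairs with target mRNAs. The sequences are those of the deposited table and are identical to the RefSeq entries (GRCr8).
rno-miR-17-5p: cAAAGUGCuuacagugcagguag
rno-miR-20a-5p: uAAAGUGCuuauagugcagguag
rno-miR-106b-5p: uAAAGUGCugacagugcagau
rno-miR-93-5p: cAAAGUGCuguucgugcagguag
rno-miR-18a-5p: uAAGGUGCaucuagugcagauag
rno-miR-19a-3p: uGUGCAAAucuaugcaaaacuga
rno-miR-19b-3p: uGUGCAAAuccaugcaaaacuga
rno-miR-92a-3p: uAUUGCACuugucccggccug
rno-miR-25-3p: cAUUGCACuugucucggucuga

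The seed AAAGUGC is shared by 4 members from both clusters, and AUUGCAC by rno-miR-92a-3p and rno-miR-25-3p, again 1 from each cluster. GUGCAAA marks rno-miR-19a-3p and rno-miR-19b-3p, which differ at 1 of 23 bases, and AAGGUGC belongs to rno-miR-18a-5p alone among the 9. In RefSeq GRCr8 the main arms of miR-17~92 span chr15:98587861-98588622 on the plus strand, a stretch of 762 bases with no spanning gene in the reference table. Those of miR-106b~25 span chr12:22156652-22157123 on the minus strand, 472 bases inside Mcm7. A related cluster on the minus strand of chrX, at chrX:137342788-137343637, carries second copies of the mature rno-miR-17-5p, rno-miR-19b-3p and rno-miR-92a-3p, so reads of these 3 members cannot be assigned to chromosome 15 or X. The remaining 6 members have 1 locus each. rno-miR-17-5p and rno-miR-20a-5p differ at 2 of 23 bases and rno-miR-92a-3p and rno-miR-25-3p at 3 of 21, so a read with sequencing errors could be counted for the wrong member.

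After 2 libraries were left out, a brain and a spleen library that the study also set aside, 318 remained with 315550 to 10571766 miRNA counts each and a median of 2848155. Values are CPM, a miRNA's count scaled to a fixed total of miRNA counts per library. No member had a count of 0 in any of the 2862 values, and the lowest mean count of a member was 147, so all 9 passed any filter on low counts that was used. Marker miRNAs of the labelled organs were checked: the nervous tissue list summed to 65698 to 129652 CPM in brain and at most 13376 elsewhere, and the germ cell list to 161878 to 203545 CPM in testis at week 21. That list fell to between 89.0 and 2638 CPM in testis at week 104. The thymocyte list, miR-181a-5p and miR-181b-5p, summed to 262076 to 401205 CPM in thymus at week 21 and to 14713 to 110215 at week 104. That list is not specific to thymus, since brain reached 153521 CPM.

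Some libraries stood apart. Male adrenal gland replicate 1 at week 21 was the least like the others of its organ and age of all 318 (Pearson r of log2 values 0.935 with the median of the others, against 0.963 for the next lowest and a median of 0.991). It held 3.14 CPM of rno-miR-17-5p, 13.8 of rno-miR-93-5p and 73.1 of rno-miR-25-3p, whereas the lowest of the 7 others held 26.8, 177 and 830 CPM. Its rno-miR-18a-5p, at 34.4 CPM, was above the 2.92 to 7.29 CPM of the others. Female spleen replicate 1 at week 104 summed to 7839 CPM over the germ cell list, where the median of the week 104 spleens was 282 CPM. Male thymus replicate 1 at week 104 had 13923 CPM of miR-181a-5p, below the 18278 to 105875 CPM of the other 7. Male thymus replicate 2 at week 2 had the highest rno-miR-19a-3p of its age, 471 CPM. Calls that were lost without 1 of these libraries are given with and without it. Other values include these libraries unless stated.

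Thymus and spleen held the highest levels of nearly every member. rno-miR-17-5p ranged from 762 to 1474 CPM in thymus at week 6, with a median of 1133, and from 394 to 767 in spleen, with a median of 665. In skeletal muscle at the same age it ranged from 34.2 to 58.8 CPM, with a median of 47.9. Every thymus and spleen library was thus above every muscle library. rno-miR-92a-3p, the most abundant member, ranged from 33770 to 71617 CPM in thymus at week 6, with a median of 53434, and from 1605 to 2876 CPM in muscle. rno-miR-19a-3p, the scarcest, ranged from 163 to 407 CPM in thymus and from 8.69 to 26.5 CPM in muscle.

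**Figure D1:**
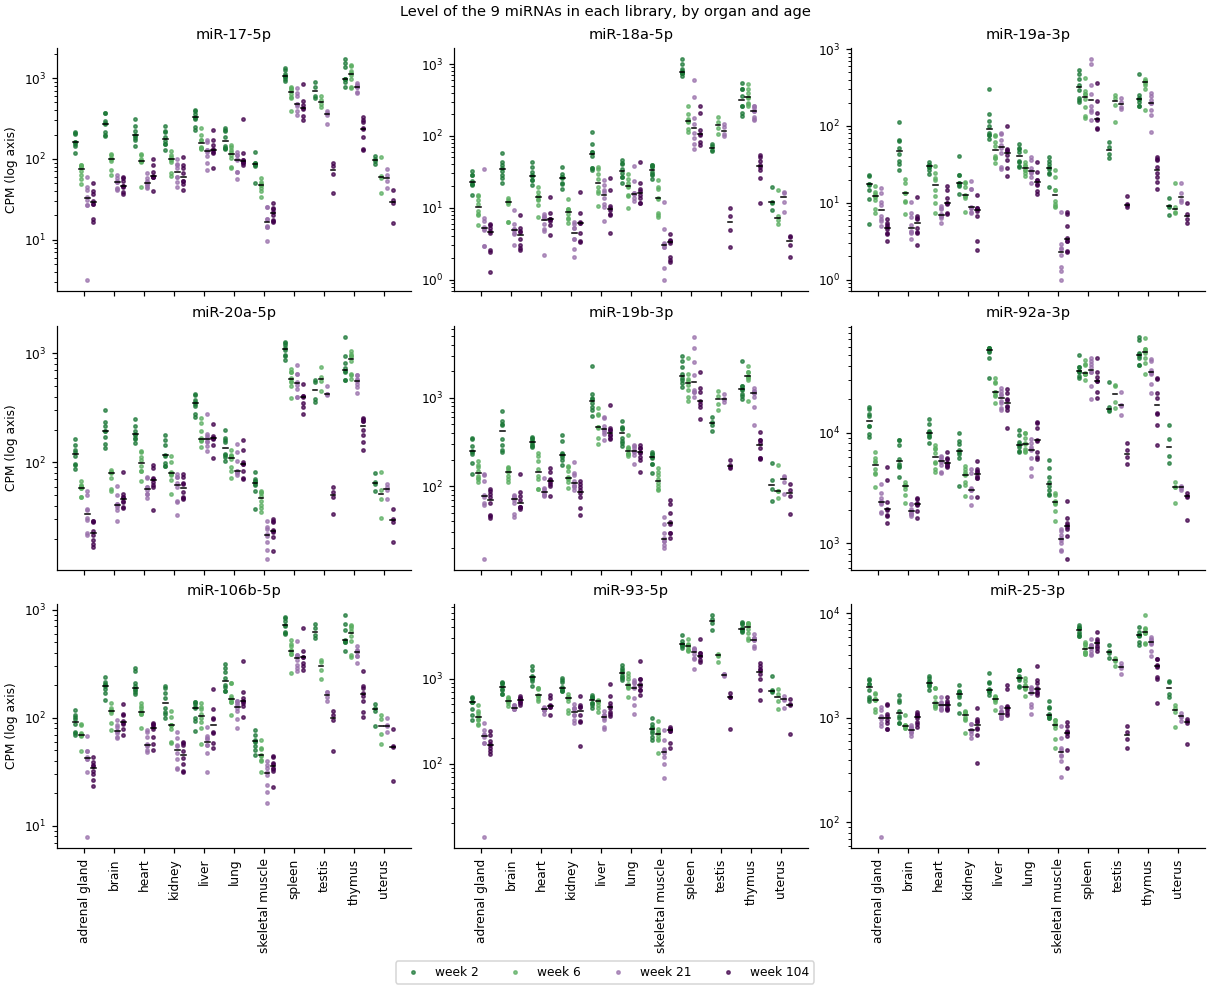
Level of each of the 9 members in each library (points, CPM, log axis) by organ and age, with the median of each organ and age as a bar. Thymus and spleen stand above the other organs in most panels, whereas testis and liver are high for some members and ages only. Skeletal muscle is at or near the bottom, and 1 adrenal gland library at week 21 lies far below the others in several panels.

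Each organ was compared with the equal-weight mean of the other 10 at the same age by edgeR's quasi-likelihood test, and a member was called at a Benjamini-Hochberg adjusted p under 0.05 and a difference of at least 2-fold. Of 396 member, organ and age sets, 91 were higher, where 21.6% of all miRNA sets were, and 93 were lower, where 18.1% were. In thymus 31 of 36 were higher (background 21.3%), all 9 members at weeks 2, 6 and 21 and 4 at week 104. In spleen 35 of 36 were higher (background 19.9%), the exception being rno-miR-93-5p at week 2, with a log2 difference of 0.98. Without female replicate 1 of week 104, rno-miR-93-5p at week 104 also fell short of 2-fold, at 0.98 in place of 1.21. Testis had 12 of 36 (background 23.5%) and liver 12 of 36 (background 17.0%).

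At week 6, the largest log2 differences of thymus were 4.25 (SE 0.11, adjusted p = 8.7e-45) for rno-miR-18a-5p and 3.76 (SE 0.12, adjusted p = 6.2e-40) for rno-miR-19a-3p. The smallest was 2.27 (SE 0.07, adjusted p = 6.7e-42) for rno-miR-25-3p. At week 104 rno-miR-18a-5p, rno-miR-92a-3p, rno-miR-17-5p and rno-miR-20a-5p were still called in thymus, between 1.36 and 1.80, and the 3 members of miR-106b~25 were between 0.71 and 0.91. In spleen at week 2 rno-miR-18a-5p stood at 3.95 (SE 0.09, adjusted p = 5.9e-49), the largest value of any member in that organ. The week 2 spleens had lower RNA integrity than the other organs. Its part in this value and in the other spleen comparisons at week 2 was not tested.

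In liver all 12 calls were of miR-17~92 members, led by rno-miR-92a-3p at week 2, where 8 liver libraries held 31451 to 58601 CPM with a median of 55878. The log2 difference from the other organs was 2.24 (SE 0.09, adjusted p = 1.8e-34), and that of rno-miR-19b-3p was 1.43 (SE 0.13, adjusted p = 2.1e-15). In the same libraries rno-miR-93-5p and rno-miR-106b-5p were below the mean of the other organs, by -0.98 and -0.83. The ratio of rno-miR-92a-3p to rno-miR-17-5p within a library was 170 ± 54 (SD, n = 8) in liver at week 2, 48.5 ± 13.8 (SD, n = 8) in thymus and 23.3 ± 6.2 (SD, n = 8) in brain.

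The low organs were brain, where 29 of 36 sets were called lower (background 24.6%), skeletal muscle with 28 of 36 (background 23.2%) and adrenal gland with 22 of 36 (background 14.3%). Without male thymus replicate 1 of week 104, 5 of the skeletal muscle calls, all of miR-17~92 members at week 104, fell short of 2-fold, at -0.98 to -0.65, and 2 calls were gained in testis. In uterus the higher call of rno-miR-93-5p at week 104 also fell short without it, at 0.67 in place of 1.00. Without male adrenal gland replicate 1 of week 21, 1 adrenal gland call was gained, rno-miR-18a-5p at -1.68 in place of -0.81. In brain at week 21 the log2 differences reached -3.55 (SE 0.24, adjusted p = 4.3e-22) for rno-miR-19a-3p and -3.09 (SE 0.15, adjusted p = 1.3e-30) for rno-miR-92a-3p. Brain thus had little of rno-miR-92a-3p, at 1757 to 2296 CPM at week 21. Its paralog rno-miR-92b-3p, which shares the seed AUUGCAC and comes from another locus, ranged from 7749 to 10530 CPM in the same libraries.

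In the order of organ means, the top place was held at week 2 by spleen, whose RNA integrity was then lower, for 6 members, by thymus for 2 and by testis for 1 (rno-miR-93-5p). Thymus held it for all 9 members at week 6 and for 6 at week 21, and spleen for all 9 at week 104. Most neighbours in these orders did not separate: an exact permutation test of log2(CPM + 1), two-sided and adjusted over 360 neighbour pairs, separated 118. Thymus and spleen were separated at week 104 for the 6 members for which they were neighbours, whereas thymus and spleen did not separate at week 6 for rno-miR-19a-3p, rno-miR-19b-3p and rno-miR-106b-5p. Neighbours that did not separate are not shown to have equal levels. Skeletal muscle was last for 6, 6, 9 and 6 members at weeks 2, 6, 21 and 104. Organs of 1 rat enter these tests as if independent.

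Within the clusters the members were far from equal. rno-miR-92a-3p made up 92.9% of the summed miR-17~92 counts, rno-miR-19b-3p 3.09%, rno-miR-17-5p 1.72%, rno-miR-20a-5p 1.44%, rno-miR-18a-5p 0.451% and rno-miR-19a-3p 0.422%. In miR-106b~25, rno-miR-25-3p made up 64.1%, rno-miR-93-5p 30.7% and rno-miR-106b-5p 5.23%. These shares compare read counts of different miRNAs, which also depend on how well each is captured in library preparation. The summed miR-17~92 members made up 5.71% ± 1.26 (SD, n = 8) of all miRNA counts in thymus at week 2, 5.43% ± 0.91 (SD, n = 8) in liver and 0.416% ± 0.109 (SD, n = 8) in skeletal muscle. The summed miR-106b~25 members made up 1.08% ± 0.13 (SD, n = 8), 0.267% ± 0.031 (SD, n = 8) and 0.146% ± 0.020 (SD, n = 8) in the same organs.

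**Figure D2:**
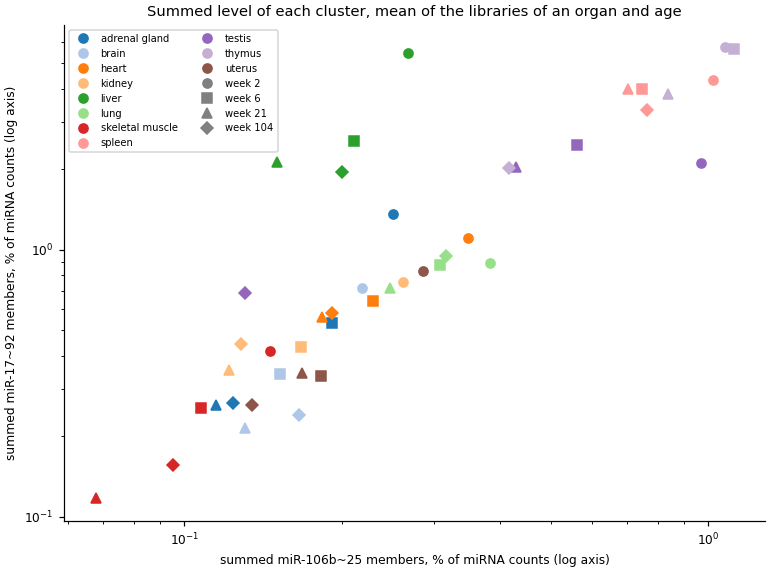
Summed miR-17~92 members against summed miR-106b~25 members, each in percent of a library's miRNA counts (both axes log) and averaged over the libraries of an organ (colour) and age (shape). Most of the 44 points follow 1 band, and the 4 liver points lie above it, with 5.43% miR-17~92 and 0.267% miR-106b~25 at week 2.

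Across the 44 organ and age means of log2 CPM, which share libraries and rats, member pairs had Pearson correlations from 0.784 (rno-miR-92a-3p and rno-miR-93-5p) to 0.986 (rno-miR-19a-3p and rno-miR-19b-3p). The correlation of rno-miR-106b-5p and rno-miR-93-5p was 0.976. Likeness of miRNAs outside the 9 was taken to the summed CPM of a cluster, which for miR-17~92 is mostly rno-miR-92a-3p (92.9% of the counts). Those most like the summed miR-17~92 members were the arm rno-miR-92a-1-5p (0.943), rno-miR-15b-5p (0.884), rno-miR-17-1-3p (0.878), rno-miR-15b-3p (0.878) and rno-miR-19a-5p (0.874). Those most like the summed miR-106b~25 members were rno-miR-106b-3p (0.952), rno-miR-19a-5p (0.949), rno-miR-15b-5p (0.948), rno-miR-18a-3p (0.930) and rno-miR-17-1-3p (0.929). Of these 10 places, 3 went to the arms of miR-15b, a miRNA of another locus, and the rest to other arms of the cluster hairpins.

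Between weeks 2 and 21 the members fell in most organs. Of 99 organ and member pairs, 64 were lower at week 21, where 25.3% of all miRNA pairs were, and 4 were higher, where 21.0% were. In CPM, the libraries of the 2 ages did not overlap in 62 pairs that were lower and in 3 that were higher. Overlap was counted for the members only, so no share of all miRNAs can be set beside these counts. The step from week 2 to week 6 had 48 lower (background 20.6%) and 3 higher (background 15.4%), and that from week 6 to week 21 had 31 lower (background 8.94%) and 0 higher (background 7.39%; 0 by DESeq2 and 0 at an unadjusted p under 0.05). These comparisons share libraries. Split by cluster, 44 of 66 pairs of miR-17~92 and 20 of 33 of miR-106b~25 were lower at week 21 than at week 2.

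By organ, the members lower at week 21 than at week 2 numbered 9 of 9 in kidney (background 24.2%), 8 in adrenal gland (24.8%), 8 in brain (25.0%), 7 in heart (25.3%) and 7 in liver (26.8%). They numbered 6 in skeletal muscle (31.3%), 6 in thymus (16.6%; 3 without male thymus replicate 2 of week 2), 4 in lung (26.0%), 4 in spleen (25.8%), 3 in testis (29.5%) and 2 in uterus (22.6%). Scaling by library size in place of trimmed means of M values (TMM) moved the median of all miRNAs in this comparison by -0.68 to -0.05 on the log2 scale, and the 64 lower pairs became 80. The share of all miRNA pairs called lower by library size is not given, so the 80 cannot be set against a background. In uterus rno-miR-19a-3p was higher at week 21, by a log2 change of 0.96 (SE 0.30, adjusted p = 0.013), with 6.98 to 11.5 CPM at week 2 and 10.3 to 18.2 CPM at week 21 in 4 libraries each, so the 2 ages overlapped. By library size the change was 0.52 (adjusted p = 0.24) and was not called.

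In brain all 6 members of miR-17~92 fell. rno-miR-17-5p ranged from 193 to 373 CPM at week 2, from 63.1 to 114 at week 6 and from 41.9 to 62.7 at week 21, with medians of 273, 101 and 51.6. No library of week 2 overlapped with one of week 6 or week 21. The log2 change from week 2 to week 21 was -1.96 (SE 0.10, adjusted p = 4.9e-15). rno-miR-19a-3p, the miR-19 family member, had the largest change at -2.78 (SE 0.25, adjusted p = 2e-10), and rno-miR-18a-5p, rno-miR-19b-3p, rno-miR-20a-5p and rno-miR-92a-3p had -2.32, -2.20, -1.79 and -1.17. The miR-106b~25 members changed less, with rno-miR-106b-5p at -0.88 (SE 0.09, adjusted p = 1e-09), rno-miR-93-5p at -0.33 (SE 0.08, adjusted p = 0.00053) and rno-miR-25-3p at -0.18, which was not called. The difference between the clusters was not itself tested. In brain, 8 members were lower at week 6 than at week 2 (background 19.3%) and 7 were lower at week 21 than at week 6 (background 9.9%).

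**Figure D3:**
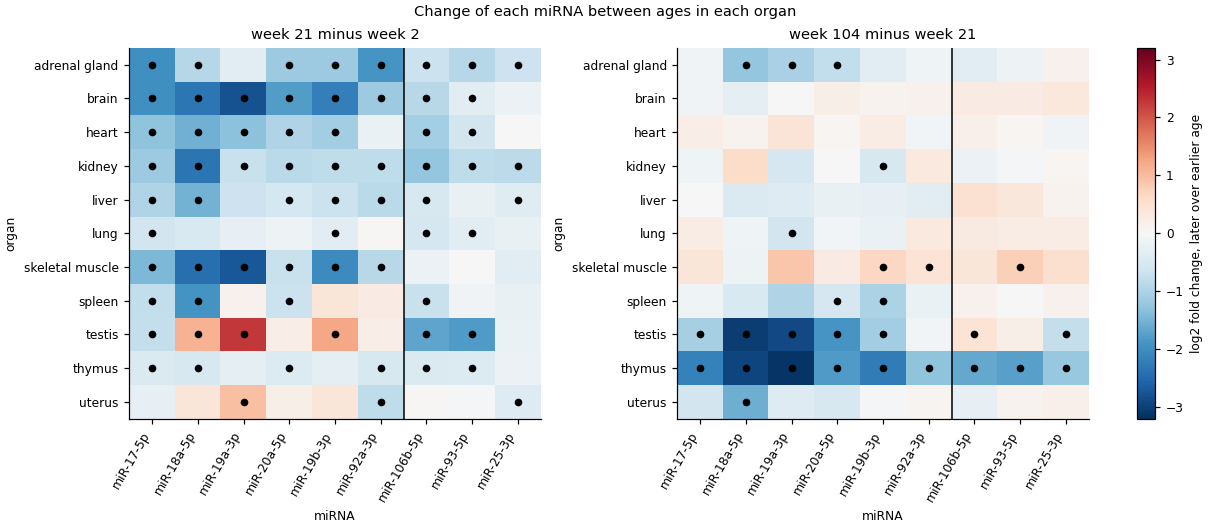
Log2 fold change of each member in each organ from week 2 to week 21 (left) and from week 21 to week 104 (right), blue for lower and red for higher at the later age, with dots on changes called at an adjusted p under 0.05. On the left most organs are blue, testis has 3 dotted red cells (rno-miR-18a-5p, rno-miR-19a-3p and rno-miR-19b-3p), and on the right the thymus row is dotted throughout.

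Skeletal muscle also fell in all 6 members of miR-17~92. rno-miR-19b-3p ranged from 139 to 244 CPM at week 2 and from 19.7 to 44.4 at week 21, a log2 change of -2.03 (SE 0.20, adjusted p = 8.3e-11). rno-miR-19a-3p fell by 2.71 and rno-miR-18a-5p by 2.41 on the log2 scale. In the same libraries rno-miR-106b-5p, rno-miR-93-5p and rno-miR-25-3p changed by -0.20, 0.01 and -0.34, none of them called. Of the 9 members, 6 were lower at week 21 than at week 6 in muscle (background 24.4%). Scaling by library size moved the median of all miRNAs by -0.68 in muscle, and with it all 9 members were called lower at week 21 than at week 2. The share of all miRNAs called lower in muscle with that scaling is not given.

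Changes by step were as follows in further organs, and differences in timing between organs were not tested. In kidney the 9 members were already lower at week 6 (background 23.9%), with rno-miR-18a-5p at 18.4 to 36.7 CPM at week 2 and 6.18 to 13.3 at week 6 (log2 change -1.64, SE 0.20, adjusted p = 2.9e-08). From week 6 to week 21 no kidney member was called by edgeR or DESeq2, and 2 had an unadjusted p under 0.05 in edgeR. In heart 7 members were lower at week 21 than at week 6 (background 15.1%), whereas rno-miR-92a-3p and rno-miR-25-3p were not called. In liver rno-miR-92a-3p went from 31451 to 58601 CPM at week 2 to 18456 to 30936 at week 6, without overlap (log2 change -0.98, SE 0.16, adjusted p = 3.9e-06). In lung the changes from week 2 to week 21 were small, between -0.60 for rno-miR-17-5p and 0.04 for rno-miR-92a-3p.

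In adrenal gland rno-miR-92a-3p fell from 9091 to 17161 CPM at week 2 to 1884 to 3449 at week 21. The log2 change was -1.88 (SE 0.16, adjusted p = 1.5e-11). It was -1.96 without male replicate 1 of week 21, which held the 1884 CPM. For rno-miR-18a-5p the male replicate 1 of week 21 counted: its log2 change was -0.92 (SE 0.36, adjusted p = 0.036) with that library and -1.87 (adjusted p = 1.1e-09) without it. In spleen rno-miR-18a-5p was 683 to 1175 CPM at week 2 and 112 to 257 at week 6, a log2 change of -1.94 (SE 0.28, adjusted p = 3.9e-06). This fall was not shared by the other arm of its hairpin, rno-miR-18a-3p, whose median was 33.0 CPM at week 2 and 33.4 at week 6. The red blood cell list in spleen also moved, from 120323 to 231055 CPM at week 2 to 79214 to 154018 at week 6. The week 2 spleens also had lower RNA integrity than the other organs. The part of either in this change was not tested.

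Testis moved in opposite directions among the members. rno-miR-19a-3p was at 38.7, 43.2, 53.0 and 62.4 CPM in the 4 libraries of week 2 and at 229, 205, 179 and 168 CPM in those of week 21. rno-miR-93-5p was at 3785, 4565, 5064 and 5559 CPM at week 2 and at 1146, 1130, 1090 and 1070 CPM at week 21. The first rose and the second fell, each without overlap between the ages. The log2 changes were 2.27 (SE 0.28, adjusted p = 3e-06) and -1.80 (SE 0.19, adjusted p = 5.8e-07). In all, 3 members rose from week 2 to week 21 (background 21.4%), rno-miR-19a-3p, rno-miR-19b-3p at 1.24 (SE 0.24, adjusted p = 0.00031) and rno-miR-18a-5p at 1.11 (SE 0.21, adjusted p = 0.00023). The 3 that fell were rno-miR-93-5p, rno-miR-106b-5p at -1.69 (SE 0.18, adjusted p = 7.7e-07) and rno-miR-17-5p at -0.76 (SE 0.18, adjusted p = 0.0022).

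These changes were largely present at week 6, when 3 members were higher (background 18.5%) and 2 lower (background 26.8%) than at week 2. The change from week 2 to week 21 was also compared with the mean change of the other 10 organs. In testis 6 of 9 members differed by at least 1 on the log2 scale at an adjusted p under 0.05 (background 28.9%), with rno-miR-19a-3p at 3.21, rno-miR-18a-5p at 2.61, rno-miR-19b-3p at 2.16, rno-miR-20a-5p at 1.07, rno-miR-92a-3p at 1.05 and rno-miR-93-5p at -1.29. In thymus 0 of 9 did (background 8.12%), although rno-miR-17-5p differed by 0.52 (adjusted p = 0.022), and in spleen 1 of 9 did (background 9.25%), rno-miR-18a-5p at -1.02, which was -0.94 and short of 2-fold without the adrenal gland library that stood apart. The germ cell list in testis summed to 2202 to 8340 CPM at week 2 and 169146 to 217482 at week 6, and the part of that shift in these values was not tested.

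Within the hairpins the arms did not move alike in testis. rno-miR-18a-3p fell by 2.04 on the log2 scale from week 2 to week 21 (SE 0.32, adjusted p = 4.0e-05), while rno-miR-18a-5p rose. rno-miR-17-1-3p fell by 1.94 (SE 0.26, adjusted p = 6.0e-06), while rno-miR-17-2-3p, the corresponding arm of the copy on the X chromosome, rose by 1.33 (SE 0.44, adjusted p = 0.017).

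**Figure D4:**
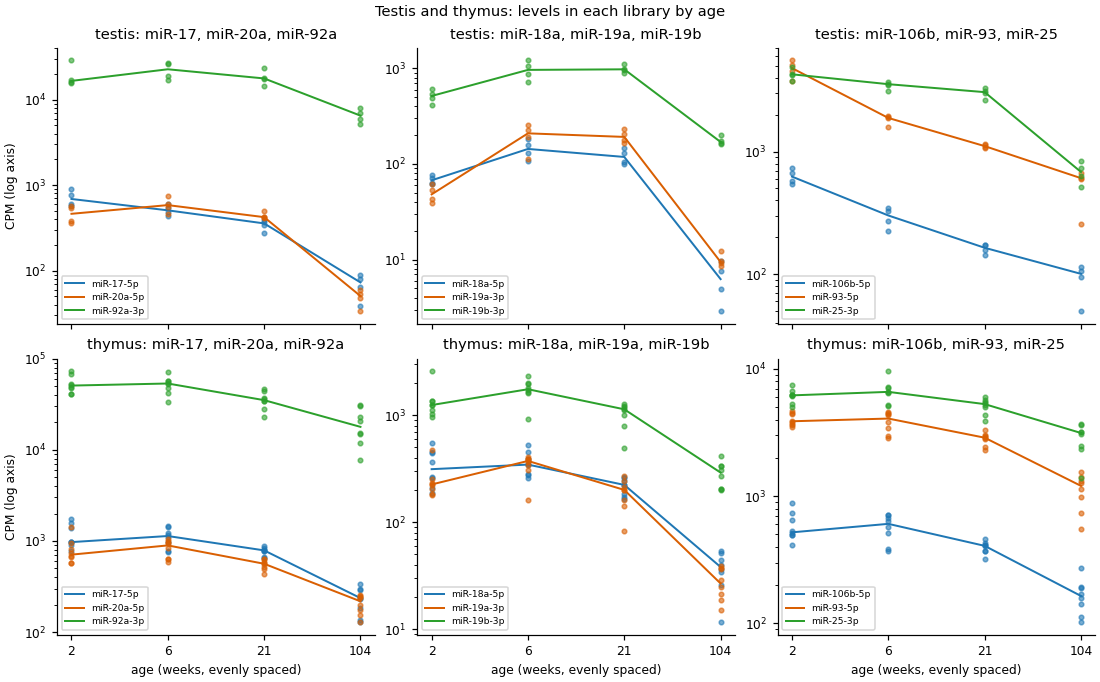
CPM (log axis) of the 9 members in each testis and thymus library (points) by age, with lines through the medians and the ages evenly spaced. In testis rno-miR-19a-3p rises from a median of 48.1 CPM at week 2 to 192 at week 21 while rno-miR-93-5p goes from 4814 to 1110, and in thymus all 9 members are lower at week 104 than at week 21.

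At week 104 the CPM of every member was lower in all 4 testis libraries than in any of week 21. This was counted for the members only, so no share of all miRNAs can be set beside it. rno-miR-18a-5p was at 132, 148, 105 and 99.0 CPM at week 21 and at 7.62, 9.76, 2.87 and 4.88 CPM at week 104. The fit with TMM scaling called 6 members lower (background 24.8%), with log2 changes of -3.04 (SE 0.23, adjusted p = 5.1e-09) for rno-miR-18a-5p, -2.89 for rno-miR-19a-3p, -1.89 for rno-miR-20a-5p, -1.11 for rno-miR-19b-3p, -1.07 for rno-miR-17-5p and -0.77 for rno-miR-25-3p. Scaling by library size moved the median of all miRNAs by -1.13 in this comparison, and with it all 9 members were called lower. The share of all miRNAs called lower in testis with that scaling is not given. The direction of rno-miR-106b-5p turned between the scalings, from a log2 change of 0.44 (SE 0.18, adjusted p = 0.047) with TMM to -0.82 (adjusted p = 0.012) by library size. rno-miR-92a-3p, at 14367 to 23349 CPM at week 21 and 5236 to 8011 at week 104, had a log2 change of -0.09 with TMM.

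In thymus the members fell late. From week 2 to week 6, 0 of 9 were called lower (background 9.9%; 0 by DESeq2 and 0 at an unadjusted p under 0.05), from week 6 to week 21, 6 were lower (background 5.52%), and from week 21 to week 104 all 9 were (background 21.6%). rno-miR-19a-3p ranged from 82.5 to 270 CPM with a median of 200 at week 21, and from 15.0 to 39.1 with a median of 26.7 at week 104. rno-miR-93-5p ranged from 2307 to 3324 CPM and from 554 to 1536 CPM. The 2 ages did not overlap for either, and of the 9 members only rno-miR-92a-3p overlapped between them. Overlap was counted for the members only, so no share of all miRNAs can be set beside this. The log2 changes were -3.15 (SE 0.22, adjusted p = 6e-14) for rno-miR-19a-3p, -2.93 (SE 0.20, adjusted p = 4e-14) for rno-miR-18a-5p and -1.73 (SE 0.14, adjusted p = 3.3e-12) for rno-miR-93-5p. The smallest change was that of rno-miR-25-3p, -1.22 (SE 0.15, adjusted p = 2.5e-08).

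The median change of the 9 members was -1.81 in this comparison, against 0.10 over all miRNAs. Scaling by library size raised the median of all miRNAs by 0.34 and still called all 9 lower. Without male replicate 1 of week 104 the changes ran from -3.11 to -1.13, all called. The share of all miRNAs called lower in thymus under either of these settings is not given. The thymocyte list fell in the same libraries, as given above, and the red blood cell list went from 1148 to 5278 CPM at week 21 to 6243 to 93486 at week 104. The part of these shifts was not tested.

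Over all organs, 23 of 99 pairs were lower at week 104 than at week 21 (background 8.66%) and 4 were higher (background 7.38%). Thymus and testis held 15 of the 23. Adrenal gland had 3 lower (background 7.95%), rno-miR-18a-5p, rno-miR-19a-3p and rno-miR-20a-5p. Of these rno-miR-18a-5p had a log2 change of -1.25 (adjusted p = 0.031) that was -0.29 (adjusted p = 0.38) without the male week 21 library that stood apart and -0.99 (adjusted p = 0.064) by library size. Spleen had 2 lower (background 2.6%), rno-miR-20a-5p at -0.54 and rno-miR-19b-3p at -1.01, and the second was no longer called without female replicate 1 (-0.89, adjusted p = 0.068). By library size neither was called, at -0.50 (adjusted p = 0.056) and -0.96 (adjusted p = 0.057). In skeletal muscle 3 members were higher (background 6.49%), rno-miR-93-5p by 0.77 (SE 0.18, adjusted p = 0.0022), rno-miR-19b-3p by 0.67 (SE 0.20, adjusted p = 0.018) and rno-miR-92a-3p by 0.45 (SE 0.15, adjusted p = 0.042). The last was not called by library size (0.41, adjusted p = 0.11). Brain, heart and liver had no member called by edgeR in this comparison, where 3 members in brain and 3 in liver had an unadjusted p under 0.05 and DESeq2 called 1 in brain and 1 in liver.

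The sexes were compared in the 9 organs that both have. Averaged over the ages, 0 of 81 organ and member pairs differed between females and males (background 1.39%). At an unadjusted p under 0.05 there were 6 by edgeR and 8 by DESeq2, which also called 0 after adjustment. The values ranged from -0.57 to 0.53 (female minus male, log2). The change from week 2 to week 21 differed between the sexes in 1 of 81 pairs (background 0.667%), rno-miR-20a-5p in brain, by 0.78 (female change minus male change, adjusted p = 0.046), and this call was lost when any 1 of the replicate numbers was left out.

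The other arms of the hairpins and miRNAs of other loci with the same seeds were followed alongside. Of the 12 other arms listed, 10 were in the table, and of their 110 organ pairs 55 were lower and 1 higher at week 21 than at week 2, against 25.3% and 21.0% of all miRNA pairs. In thymus all 10 were lower at week 104 than at week 21, where 21.6% of all miRNAs were, led by rno-miR-18a-3p at -2.93 (SE 0.31, adjusted p = 1.1e-09). Of the relatives by seed, 4 of 6 were in the table, and of their 44 pairs 11 were lower and 10 higher at week 21 than at week 2. rno-miR-363-3p, from the X copy, fell in brain from 32.0 to 173 CPM at week 2 to 1.41 to 5.14 at week 21 (log2 change -4.73, SE 0.32, adjusted p = 7.3e-13). In thymus rno-miR-363-3p and rno-miR-20b-5p, both from the X copy, fell by 1.95 and 2.24 from week 21 to week 104, whereas rno-miR-92b-3p rose by 0.86 (adjusted p = 0.035). In testis rno-miR-32-5p, which shares its seed with rno-miR-92a-3p, rose by 3.40 (SE 0.25, adjusted p = 5.0e-09) over that interval, with medians of 98.1 and 413 CPM.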

How the data were processed

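Small RNA libraries of 320 rat organ samples were analysed. The authors trimmed reads with fastp 0.23.2, aligned them with Bowtie 1.3.1 to miRBase and deposited raw counts per mature miRNA in 1 table. It holds 616 miRNAs, of which 604 are from miRBase and 12 are candidates. Counts of each miRNA were divided by the column total to give CPM, and errors are the spread between libraries. Libraries are compared only through their miRNA counts, so a large shift in a few abundant miRNAs moves all CPM values.

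Tests used edgeR 4.0.16 (quasi-likelihood, TMM scaling, R 4.3.3) on the counts, fitted over all 616 miRNAs, with 1 fit per organ for age and sex, 1 per age for organs and 1 over all libraries for organ by age. P-values were adjusted by Benjamini-Hochberg over all miRNAs of a contrast and called under 0.05. Permutation tests and figures used SciPy 1.17.1 and matplotlib 3.10.9. On simulated counts with 200 miRNAs changed 4-fold (thymus, week 21 against week 2) the fit recovered 200 and called 10 of 416 unchanged ones. Alternatives were library-size scaling, DESeq2 1.42.0, a mean count of at least 10 (457 miRNAs), all 320 libraries, sequencing lane (from the study's sample table) as covariate, a replicate block and leaving out each replicate. The members and lists were chosen with earlier results of these data known. The named miRNAs are the 9 members, the other arms of their hairpins, relatives by seed and, for each cluster, the 5 most like miRNAs.

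Replicate libraries differed by far more than sampling noise (lowest chi-square per degree of freedom 15.0 over 480 pairs), so none was counted as a duplicate. Coordinates are from RefSeq GRCr8, whereas the submitters' processing notes name another build, and the loci were found by matching the deposited sequences.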

Additional observations from a re-analysis of the deposited data

Results flagged for a closer look

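In 20 of 180 sets of a member, organ and age tested by Dixon's rule in thymus, spleen, liver, testis and skeletal muscle, 1 library lay apart from the rest, where chance marks about 1 in 20. The members share libraries, so these tests are not independent. A pair of libraries were apart in 3 members each. Male thymus replicate 2 at week 2 was the first, with 471 CPM of rno-miR-19a-3p, 1410 of rno-miR-20a-5p and 2586 of rno-miR-19b-3p. Without it rno-miR-92a-3p, rno-miR-20a-5p and rno-miR-18a-5p were no longer called lower at week 21 than at week 2 in thymus (log2 changes -0.43, -0.31 and -0.46), leaving 3 of the 6 calls. Female spleen replicate 1 at week 104 held 853 CPM of rno-miR-17-5p, 677 of rno-miR-106b-5p and 2940 of rno-miR-93-5p, each above the other 6 libraries.

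Male skeletal muscle replicate 3 at week 21 held 12.0 CPM of rno-miR-18a-5p and 7.66 of rno-miR-19a-3p, above the others. In liver, male replicate 4 at week 2 held 301 CPM of rno-miR-19a-3p and 2296 of rno-miR-19b-3p, and male replicate 3 at week 104 held 98.9 and 832 CPM. Female liver replicates were apart with 277 CPM of rno-miR-20a-5p at week 21, 31451 of rno-miR-92a-3p at week 2 and 1195 of rno-miR-25-3p at week 6. Further single libraries held 163 CPM of rno-miR-19a-3p and 9592 of rno-miR-25-3p in thymus at week 6, 50747 of rno-miR-92a-3p in spleen at week 2, 28674 of rno-miR-92a-3p in testis at week 2 and 502 of rno-miR-20a-5p in testis at week 21.

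Changes from week 2 to week 21 that differed between groups by the test of the difference itself were rno-miR-20a-5p in brain between the sexes (0.78 on the log2 scale) and, against the mean change of the other organs, rno-miR-18a-5p in spleen (-1.02) and, in testis, rno-miR-19a-3p (3.21), rno-miR-18a-5p (2.61), rno-miR-19b-3p (2.16), rno-miR-20a-5p (1.07), rno-miR-92a-3p (1.05) and rno-miR-93-5p (-1.29).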

How the results depend on the processing

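Of the pairs called between weeks 2 and 21, 46 lower and 2 higher were called under all 15 settings, and between weeks 21 and 104, 15 lower and 0 higher. The 15 include the main fit, and age changes were fitted by organ. A setting that left out a single named library could thus alter only thymus, spleen or adrenal gland. The setting with all libraries could alter only brain and spleen. In the other organs these settings repeat the main fit, so agreement there adds nothing. Requiring 2-fold left 15 lower at week 6 than at week 2, 6 lower at week 21 than at week 6, 26 lower at week 21 than at week 2 and 0 higher at week 104 than at week 21. Shares of all miRNA pairs are not given for this or the other settings of this section. The counts thus show only how the number of member calls moved. With a mean count of at least 10, 6 pairs were higher at week 6 than at week 2, and organ calls of any fold gave 181 lower sets. The pairs whose change differed between the sexes numbered 0 by library size, 2 by DESeq2, 2 with a mean count of at least 10 and 0 with all libraries. Leaving out replicates 1 to 4 in turn, or 1 of 4 libraries chosen after seeing the data, gave 37 to 49 and 3 to 7 pairs lower and higher at week 6 than at week 2, 19 to 34 lower at week 21 than at week 6, 53 to 65 and 3 to 5 lower and higher at week 21 than at week 2, 18 to 25 and 1 to 4 lower and higher at week 104, 0 to 1 between the sexes, 0 to 1 whose change differed between the sexes, and 32 to 87 separated neighbours, where fewer libraries raise the smallest p. Library size reversed rno-miR-106b-5p in testis from week 21 to week 104 (-0.82) and the organ difference of rno-miR-93-5p in uterus at week 104 (-0.29). The cause was not tested.

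Same-numbered libraries of different organs, of 1 sex and age, did not deviate together (mean r 0.010 over 1422 pairs, against -0.0033 for other numbers). The numbers were therefore not taken to pair libraries in the main fits. Such a correlation cannot show whether a number marks the same rat in each organ. A replicate block gave 47 lower at week 6 than at week 2, 32 at week 21 than at week 6, 63 at week 21 than at week 2, 23 at week 104 than at week 21, and 0 pairs whose change differed between the sexes. With lane as covariate these 4 counts of lower pairs were 34, 21, 56 and 19.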
